A study of Mus musculus with 12 samples.

Results

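Genomic imprinting silences a gene on the chromosome inherited from one parent, so that most RNA of a paternally expressed gene comes from the chromosome of the father. The silent copy is marked by DNA methylation laid down in the germ line at a control region, and after fertilisation zinc finger proteins such as ZFP57, with TRIM28, keep that mark in place. Stem cell lines are known to lose or gain such marks in culture.

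The 9 genes described here are Mest, Peg3, Peg10, Plagl1, Igf2, Snrpn, Impact and Zrsr1, which are paternally expressed in mouse, and Copg2, the gene that overlaps the end of Mest. They were taken by symbol from the 47729 genes of the deposited table, and all 9 were found there. They were chosen by name with the FPKM differences between delta and WT in these same libraries known, so such differences are given below as values, without a test.

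RNA was sequenced from the mouse embryonic stem cell line E14Tg2a, of strain 129/Ola. The delta cells (delta 0.7 in the labels) lack, on both alleles, a stretch of 674 bases at chr2:152177049-152177722 that the labels describe as regulating Tcf15, which encodes a helix-loop-helix transcription factor. The WT cells are the unedited line. Each genotype was taken in serum-free N2B27 with 2i and LIF (0 h, naive cells), and after 12 h and 24 h of conversion to epiblast-like cells on fibronectin with Activin, bFGF and KOSR. With 2 libraries for each genotype and time there were 6 groups and 12 libraries. The delta columns carry the mark of 1 clone, so genotype and clone cannot be told apart. No label says that replicates were separate cultures, and p-values then reflect only how these samples vary, which may be technical variation.

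Levels are given in FPKM (fragments per kilobase of exon, normalised for library size) as the authors deposited them. The reads recovered from these values came to 9740851 to 17571255 per library (median 12189883). The summed level of 8 pluripotent stem cell markers was 1766 to 3108 FPKM in delta libraries and 1870 to 2457 FPKM in WT libraries. The epiblast-like markers Fgf5, Pou3f1, Otx2 and Dnmt3b all rose from 0 to 24 h by limma, and their sum ran from 28.3 to 458 FPKM over delta libraries and from 33.8 to 347 FPKM over WT libraries. These ranges pool the 3 times. At 24 h the epiblast-like sum was 458 and 451 FPKM in delta and 347 and 304 FPKM in WT. Nanog was then 31.1 and 33.4 FPKM in delta and 63.3 and 68.5 FPKM in WT. Esrrb, Zfp42 and Sox2 were also lower in delta without overlap, while Pou5f1, Klf4, Tdgf1 and Utf1 overlapped. Over all genes 16.4% were lower in delta without overlap at 24 h. No marker of either list was called between the genotypes averaged over times. The part of such differences in the 24 h values of the 9 genes was not tested. The 0 h replicate 1 libraries stood apart, with ribosomal protein genes at 13.6% (delta) and 11.6% (WT) of reads and at 5.82% to 7.59% in the remaining 10. The mitochondrial share of reads was 0.447% to 0.647% for replicate 1 and 1.80% to 2.87% for replicate 2. Tcf15 itself measured 2.16 and 1.05 FPKM at 0 h, 1.06 and 1.04 FPKM at 12 h and 4.44 and 2.76 FPKM at 24 h in delta cells. The WT libraries had 9.16 and 3.45, then 57.1 and 28.8, then 99.4 and 55.4 FPKM. Averaged over times it was lower in delta by limma (log2 difference −3.27 ± 0.27 SE, adjusted p = 0.0050), and every delta library was below every WT library of its time.

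Mest lies at chr6:30723547-30748465 on the plus strand (mm10, GENCODE M21), and its last 912 bases overlap exons of Copg2 on the opposite strand. Among the 7 of the 9 genes with an entry in the RefSeq promoter table (GRCm38.p6), 5 hold the hexamer TGCCGC, to which mouse ZFP57 binds when it is methylated, in at least 1 window of 250 bases before to 50 after a start. Both strands were searched and the hexamer was on the minus strand of transcription each time, so it reads GCGGCA in the runs. Of all 32851 windows, 11.6% hold it, and 6 of the 15 windows of these genes do, of which 2 are Mest windows that overlap almost wholly and hold the same hexamers. Mest is shown because, on the log2(FPKM + 1) scale, its genotype difference was the largest of the 9 genes at every time, and Snrpn and Plagl1 because one rose over time and the other varied widely between replicates. The 280 bases run 5′ to 3′ on the strand of the gene, from 250 before to 30 after the start, with the hexamer in capitals. They lie at chr6:30737800-30738079 on the plus strand for Mest, at chr7:60005170-60005449 on the minus strand for Snrpn and at chr10:13090582-13090861 on the plus strand for Plagl1.
Mest: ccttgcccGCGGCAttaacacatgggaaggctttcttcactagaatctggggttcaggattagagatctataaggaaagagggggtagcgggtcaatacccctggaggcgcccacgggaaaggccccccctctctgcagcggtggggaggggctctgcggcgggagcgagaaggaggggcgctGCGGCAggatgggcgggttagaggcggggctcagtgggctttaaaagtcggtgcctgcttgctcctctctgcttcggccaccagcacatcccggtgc
Snrpn: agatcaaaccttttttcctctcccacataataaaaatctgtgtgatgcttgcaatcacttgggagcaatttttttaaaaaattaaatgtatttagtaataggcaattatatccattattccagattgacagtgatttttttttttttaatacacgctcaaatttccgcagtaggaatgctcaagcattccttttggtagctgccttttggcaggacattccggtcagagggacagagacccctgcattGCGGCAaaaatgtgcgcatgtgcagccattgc
Plagl1: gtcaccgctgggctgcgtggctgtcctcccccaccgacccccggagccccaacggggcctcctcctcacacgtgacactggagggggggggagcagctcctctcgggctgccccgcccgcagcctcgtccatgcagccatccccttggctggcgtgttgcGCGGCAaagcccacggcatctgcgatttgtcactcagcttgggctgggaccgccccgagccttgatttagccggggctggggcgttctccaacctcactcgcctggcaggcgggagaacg
The Mest window holds the hexamer at 2 places, first base 242 and 67 bases before the start, and 17 CpG dinucleotides against a median of 7 over all windows. The Plagl1 window holds 26 CpGs with the hexamer 90 bases before the start, and the Snrpn window 7 CpGs with the hexamer across the start. Copg2 and Igf2 hold it in 1 window each, while the windows of Peg3 and Zrsr1 do not contain these letters. Mest, Snrpn and Igf2 also have windows at other starts that do not contain them. A match is a description of the sequence and no measure of binding or methylation.

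Mest encodes a protein of the alpha/beta hydrolase fold family and hosts the microRNA miR-335 in an intron. It was low in every delta library, and each genotype held more at each later time. Mest in delta cells measured 0.989 and 0.996 FPKM at 0 h (35 and 69 recovered reads), 1.65 and 1.84 FPKM at 12 h (81 and 100 reads) and 2.502 and 2.47 FPKM at 24 h (152 and 126 reads). Mest in WT cells measured 8.98 and 7.28 FPKM at 0 h (359 and 374 reads), 14.8 and 20.7 FPKM at 12 h (1017 and 816 reads) and 34.7 and 39.1 FPKM at 24 h (1756 and 1751 reads). The highest delta library, at 24 h, was below the lowest WT library, at 0 h, so the genotypes did not overlap at any time. At 24 h the level was 2.49 ± 0.0223 FPKM in delta and 36.9 ± 3.11 FPKM in WT (SD, n = 2 each). The ratio of the delta mean to the WT mean was 0.122 at 0 h, 0.0981 at 12 h and 0.0673 at 24 h. On the log2(FPKM + 1) scale, which understates the change of genes this low, delta minus WT was −2.19, −2.76 and −3.44 ± 0.20 (SE of the limma model). The distance between the genotypes was therefore larger at later times, a change that was given no test because the genotypes chose the gene.

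**Figure D1:**
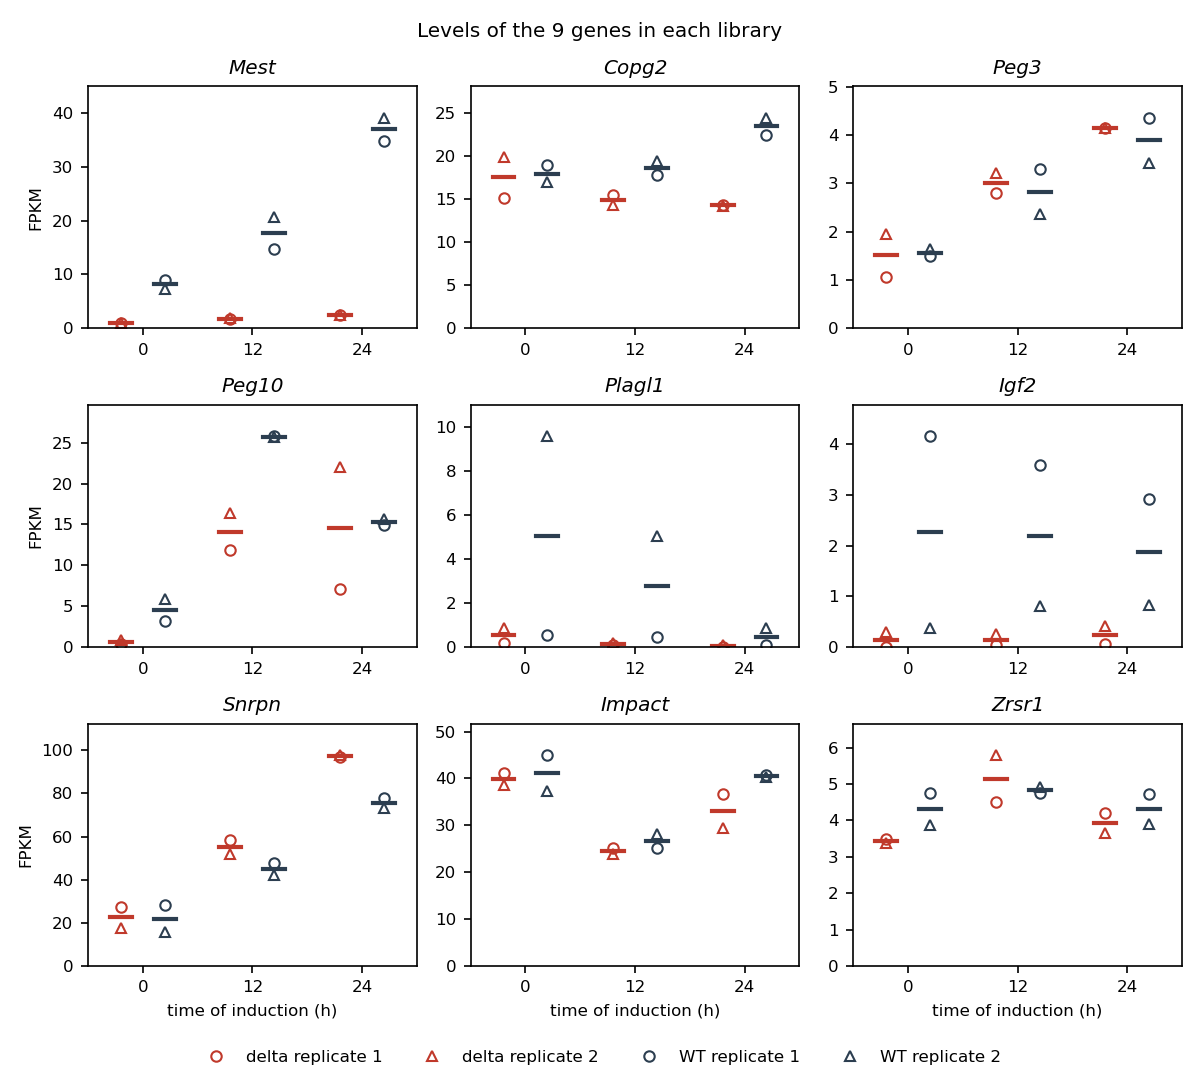
Level in FPKM (vertical axes, each from 0) of the 9 genes at 0, 12 and 24 h of induction (horizontal axes), with delta libraries in red left of WT libraries in dark blue, circles for replicate 1, triangles for replicate 2 and bars for the mean of 2 libraries. Mest reaches 2.502 FPKM at most in delta and 39.1 FPKM in WT, while Snrpn stands higher at each later time in both and Plagl1 and Igf2 differ widely between replicates.

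The rise of Mest over time averages both genotypes with equal weight, so it does not use the genotype difference known when the genes were chosen. Earlier results of these data were known at that choice, so the tests over time may not be independent of it. By limma, Mest changed by 0.74 ± 0.14 (log2, SE; adjusted p = 0.0072) from 0 to 12 h, by 1.43 ± 0.14 (adjusted p = 0.00011) from 0 to 24 h and by 0.69 ± 0.14 (adjusted p = 0.025) from 12 to 24 h. The first pair of changes share their 0 h libraries. The 12 to 24 h call rests on few libraries: with 1 library left out in turn the adjusted p ranged from 0.0189 to 0.119 and missed the threshold in 7 of 12 fits, those without WT 12 h replicate 1 or any of the 12 h delta and the 24 h libraries. Within delta the ratio of the 24 h mean to the 0 h mean was 2.51, and within WT it was 4.54. The corresponding log2 changes were 0.81 ± 0.20 in delta and 2.06 ± 0.20 in WT.

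**Figure D2:**
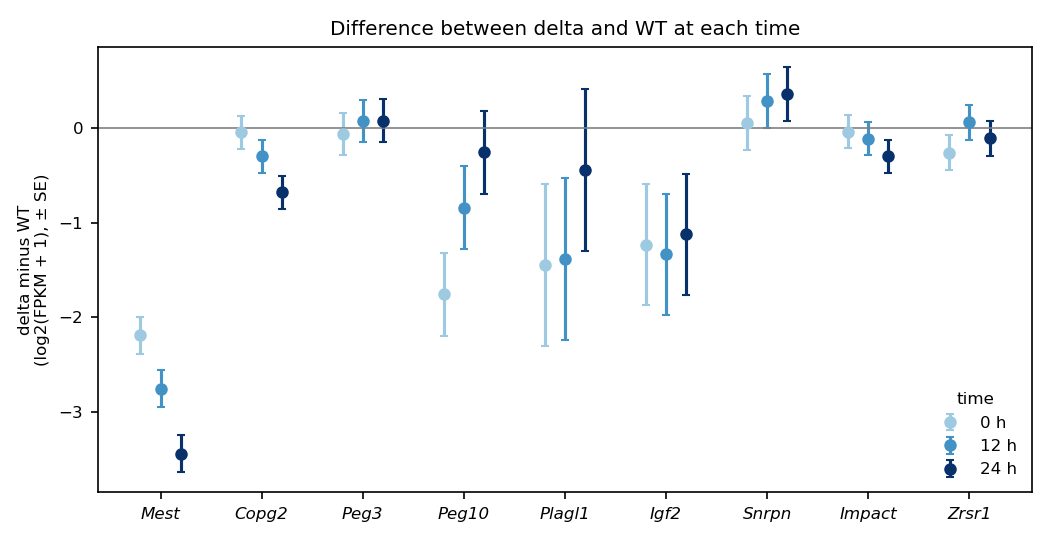
Difference delta minus WT in log2(FPKM + 1) (vertical axis) for each of the 9 genes (horizontal axis) at 0, 12 and 24 h, with error bars of 1 SE from the limma model. Mest lies at −2.19, −2.76 and −3.44, Peg10 moves from −1.76 at 0 h to −0.25 at 24 h, and Peg3, Impact, Snrpn and Zrsr1 stay within 0.36 of 0.

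Tcf15 was the gene most like Mest over the 12 libraries, with a Pearson correlation of 0.94 in log2(FPKM + 1). The ranking covered 7024 genes with a mean of at least 5 FPKM, and genes with a predicted symbol were left out. Aurkb, a mitotic kinase (0.87), the replication protein Rpa1 (0.84), Rcc1, an exchange factor for Ran (0.81), and the proteasome subunit Adrm1 (0.79) followed. All the libraries fall into the same 6 groups, so these values describe a shared pattern over genotype and time. Mest was chosen with its genotype difference known, and the correlation includes that difference. Tcf15, which the deleted stretch is described as regulating, was also lower in delta at every time. Its rank therefore cannot show a link between Tcf15 and Mest, and such a link was not tested. Among the other 8 genes of the list Copg2 came closest (0.78), then Igf2 (0.68) and Peg10 (0.54), with the remaining 5 between 0.18 and 0.30.

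Copg2 (chr6:30747554-30896794, minus strand) encodes a gamma subunit of the COPI coat of transport vesicles. Its level was even across both genotypes at 0 h and lower in delta later. Copg2 in delta cells measured 15.2 and 19.9 FPKM at 0 h, 15.5 and 14.4 FPKM at 12 h and 14.4 and 14.2 FPKM at 24 h. Copg2 in WT cells measured 18.9 and 17.0, then 17.8 and 19.4, then 22.5 and 24.5 FPKM. The genotypes overlapped at 0 h and not at 12 or 24 h, and delta minus WT was −0.04, −0.30 and −0.68 ± 0.17. Averaged over genotypes Copg2 did not pass the test at any time (log2 change 0.05 ± 0.12 from 0 to 24 h, limma adjusted p = 0.78). Without the 0 h replicate 1 libraries delta minus WT at 0 h was 0.22. The sources used here do not give whether counting used strand. The 912 shared bases are 17.8% of the exon bases of Copg2 and 23.1% of those of Mest, so reads of each gene may be counted with the other, and their part in these values was not tested.

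**Figure D3:**
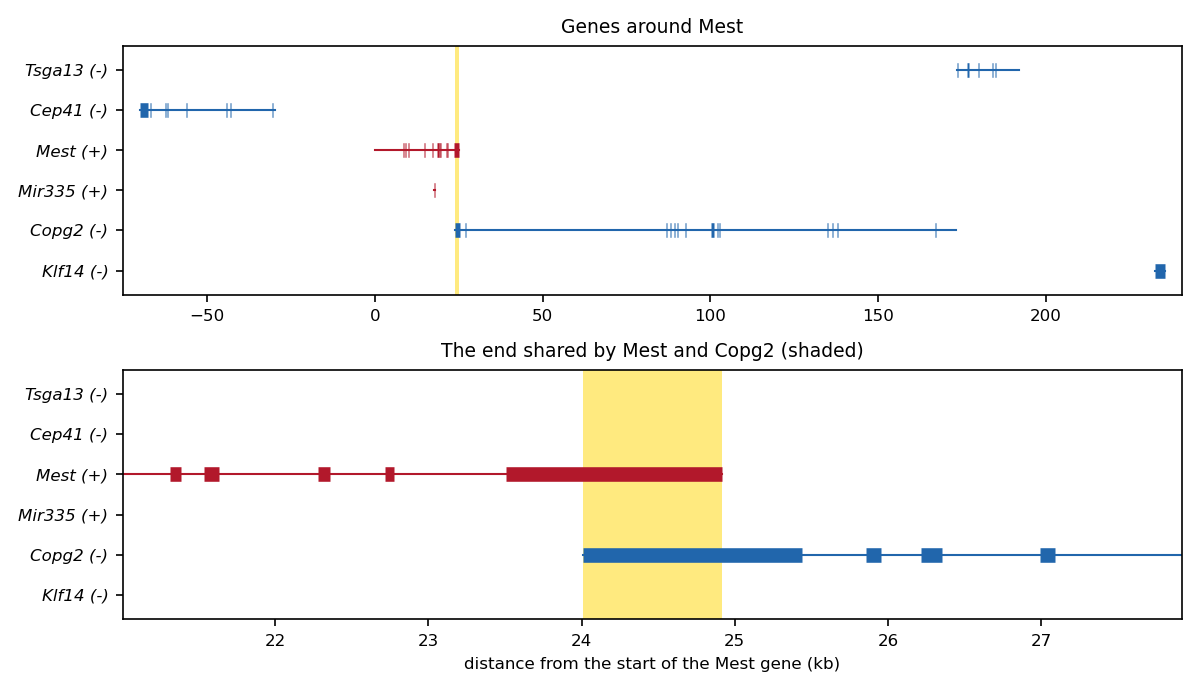
Genes around Mest in GENCODE M21, drawn against distance in kb from the start of the Mest gene, with plus-strand genes in red, minus-strand genes in blue, exons as blocks and the stretch shared by Mest and Copg2 shaded. In the lower panel the shaded 912 bases are exonic in both genes.

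The neighbours of Mest on the chromosome were read from the same table. Cep41, a centrosomal protein gene on the far side of the Mest start, had 2.24 and 2.06 FPKM in delta and 2.14 and 2.39 FPKM in WT at 0 h, and 3.69 and 4.27 FPKM in delta and 3.64 and 4.22 FPKM in WT at 24 h. At 12 h it had 4.30 and 4.02 FPKM in delta and 3.96 and 4.10 FPKM in WT. Its genotypes overlapped at every time and its averaged difference was 0.00 ± 0.10 (limma adjusted p = 1). Klf14, a maternally expressed Krüppel-like factor of the same cluster, stayed at 0.0506 FPKM or below, and Mir335 was listed at 0 in all 12 libraries, in mRNA libraries that do not capture mature microRNAs.

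Peg10 (chr6:4747306-4760517, plus strand) is a gag-pol gene descended from a retrotransposon and is needed for the placenta in mouse. It was far higher after 0 h in both genotypes. Peg10 in delta cells measured 0.368 and 0.837 FPKM at 0 h, 11.9 and 16.3 FPKM at 12 h and 7.07 and 22.0 FPKM at 24 h. Peg10 in WT cells measured 3.20 and 5.83, then 25.8 and 25.7, then 14.9 and 15.6 FPKM. Delta was below WT without overlap at 0 h and 12 h, and at 24 h the delta libraries lay on both sides of the WT ones. Delta minus WT was −1.76, −0.84 and −0.25 ± 0.44. Averaged over genotypes, Peg10 changed by 2.78 ± 0.31 from 0 to 12 h (limma adjusted p = 0.00053) and by 2.35 ± 0.31 from 0 to 24 h (adjusted p = 0.00064), and its change of −0.42 ± 0.31 from 12 to 24 h did not pass (adjusted p = 0.64). The 24 h delta libraries differed from each other 3.11-fold.

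Peg3 (chr7:6703892-6730431, minus strand) encodes a large zinc finger protein of the Krüppel type. It was alike in level between the genotypes and rose. Peg3 in delta cells measured 1.06 and 1.95 FPKM at 0 h, 2.81 and 3.21 FPKM at 12 h and 4.15 and 4.16 FPKM at 24 h. Peg3 in WT cells measured 1.496 and 1.64, then 3.30 and 2.36, then 4.36 and 3.42 FPKM. The genotypes overlapped at every time, with delta minus WT of −0.06, 0.08 and 0.08 ± 0.22. Averaged over genotypes the change was 0.63 ± 0.16 from 0 to 12 h (limma adjusted p = 0.027) and 0.99 ± 0.16 from 0 to 24 h (adjusted p = 0.0019). The 0 to 12 h call was lost in 6 of 12 fits that left out a library (adjusted p 0.0054 to 0.10), with no filter on level (0.055) and without the 0 h replicate 1 libraries (0.051).

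Snrpn (chr7:59982495-60140219, minus strand) encodes SmN, a spliceosomal protein, and shares its exons in part with Gm38393. It rose to the highest mean level of the 9 genes at 12 and 24 h in both genotypes. Snrpn in delta cells measured 27.4 and 17.5 FPKM at 0 h, 58.3 and 52.0 FPKM at 12 h and 96.7 and 97.7 FPKM at 24 h. Snrpn in WT cells measured 28.4 and 15.6, then 47.6 and 42.3, then 78.0 and 73.1 FPKM. Delta lay above WT without overlap at 12 and 24 h, by 0.29 and 0.36 ± 0.29 on the log2 scale, and overlapped it at 0 h (0.06). Averaged over genotypes the change was 1.17 ± 0.20 from 0 to 12 h (limma adjusted p = 0.0048) and 1.95 ± 0.20 from 0 to 24 h (adjusted p = 0.00016). The 12 to 24 h change of 0.77 ± 0.20 did not pass (adjusted p = 0.073), but did so once replicate number was a block (adjusted p = 0.024).

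Impact (chr18:12955852-12992950, plus strand) inhibits GCN2, a kinase of the amino acid stress response. It fell at 12 h and then stood higher again. Impact in delta cells measured 41.1 and 38.7 FPKM at 0 h, 25.2 and 24.0 FPKM at 12 h and 36.6 and 29.4 FPKM at 24 h. Impact in WT cells measured 44.9 and 37.3, then 25.2 and 28.1, then 40.7 and 40.3 FPKM. The genotypes overlapped at 0 h, and at 24 h both delta libraries were below both WT libraries, and at 12 h the highest delta library and the lowest WT library both rounded to 25.2 FPKM, with delta just below. Delta minus WT was −0.04, −0.11 and −0.30 ± 0.17. Averaged over genotypes the change was −0.64 ± 0.12 from 0 to 12 h (limma adjusted p = 0.0083) and −0.14 ± 0.12 from 0 to 24 h (adjusted p = 0.41). The rise of 0.50 ± 0.12 from 12 to 24 h did not pass (adjusted p = 0.061), but did so under the replicate block (adjusted p = 0.037).

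Zrsr1 (chr11:22972005-22976496, plus strand) is a retrocopy of the splicing factor gene Zrsr2, lies within Commd1 on the other strand, and could share reads with both. It stayed between 3.37 and 5.79 FPKM in delta libraries and between 3.88 and 4.91 FPKM in WT libraries. No change over time passed the test (largest log2 change 0.30 ± 0.13, from 0 to 12 h, limma adjusted p = 0.14). Delta was below WT without overlap at 0 h only (−0.26 ± 0.19). Commd1, the host gene, had a genotype difference of −0.02 ± 0.18 (limma adjusted p = 1).

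Plagl1 (chr10:13060504-13131694, plus strand) encodes a zinc finger transcription factor that restrains cell division. It was seen mainly in the replicate 2 libraries. Plagl1 in delta cells measured 0.171 and 0.881 FPKM at 0 h (12 and 121 reads), 0.103 and 0.186 FPKM at 12 h and 0.00831 and 0.0890 FPKM at 24 h, the first of these from 1 read. Plagl1 in WT cells measured 0.543 and 9.58 FPKM at 0 h (43 and 976 reads), 0.471 and 5.06 FPKM at 12 h and 0.0899 and 0.857 FPKM at 24 h. Replicate 2 was above replicate 1 in all 6 groups, by 1.81-fold to 17.7-fold. Both delta libraries were below both WT libraries at 12 h, while at 0 h delta replicate 2 lay above WT replicate 1. At 24 h delta replicate 2 (0.0890 FPKM) and WT replicate 1 (0.0899 FPKM) held 9 recovered reads each, a tie in reads that counts as no overlap in FPKM. The change over time did not pass the test (−1.004 ± 0.61 from 0 to 24 h, limma adjusted p = 0.25) but passed without WT 0 h replicate 1 (adjusted p = 0.033). The gene passed the filter on low values only through WT replicate 2, so the counts below that include it describe it and support nothing.

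Igf2 (chr7:142650766-142666816, minus strand) encodes a fetal growth factor. In GENCODE M21 62.8% of its exon bases are shared with Gm49394, a gene that has no value among the deposited ones. Igf2 was seen mainly in the WT replicate 1 libraries. Igf2 in delta cells measured 0 and 0.288 FPKM at 0 h (0 and 29 reads), 0.0421 and 0.254 FPKM at 12 h and 0.0681 and 0.419 FPKM at 24 h. Igf2 in WT cells measured 4.16 and 0.376 FPKM at 0 h (241 and 28 reads), 3.59 and 0.805 FPKM at 12 h and 2.92 and 0.832 FPKM at 24 h. In FPKM delta lay below WT without overlap at every time, including against WT replicate 2. At 0 h that rests on 29 reads in delta replicate 2 and 28 in WT replicate 2. Delta minus WT at 0 h was −1.23 ± 0.64, and −0.09 without the 0 h replicate 1 libraries. Igf2 passed the filter on low values only through WT replicate 1, so the counts below that include it describe it and support nothing. WT replicate 1 held 3.51-fold to 11.1-fold more than WT replicate 2. In the same WT replicate 1 libraries the summed level of 12 fibroblast or mesenchyme markers was 23.2 to 50.5 FPKM, against 2.97 to 7.87 FPKM in the delta libraries and 2.90 to 7.25 FPKM in WT replicate 2. Of the 12 markers 7 (Col1a1, Col1a2, Col3a1, Postn, Prrx1, Tagln and Acta2) were above all 9 other libraries in each of these 3. Lum was at 0 in 1 of these 3, and Dcn, Thy1, Twist1 and Pdgfrb overlapped the other libraries. Pdgfrb was higher in WT replicate 2 than in WT replicate 1 at each time. Dcn was highest in delta 24 h replicate 1 (1.402 FPKM). Tagln and Acta2 were the largest parts of the sum in each WT replicate 1 library (21.09 and 13.98 FPKM at 12 h). The part of the 12 markers in the Igf2 values was not tested. In bulk RNA, fewer cells of a type and less RNA per cell cannot be told apart.

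**Figure D4:**
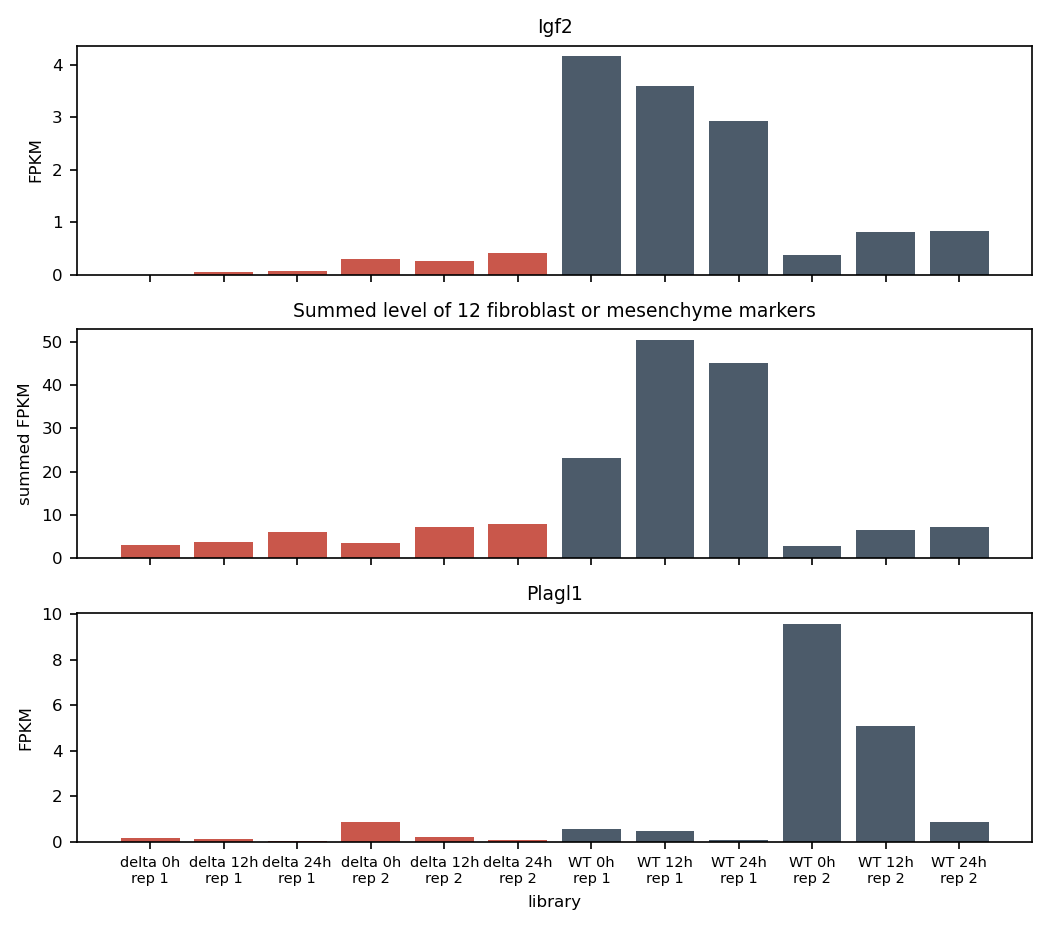
Igf2 level, summed level of 12 fibroblast or mesenchyme markers and Plagl1 level (bars from 0, FPKM) in each of the 12 libraries, delta in red left of WT in dark blue. Igf2 and the marker sum are high in the 3 WT replicate 1 libraries (23.2 to 50.5 summed FPKM), and Plagl1 in WT replicate 2 at 0 h and 12 h.

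Set against all genes, the changes over time were these. The 9 genes were chosen with earlier results of these data known, so the counts only describe them. From 0 to 12 h, 4 of the 9 genes rose (Mest, Peg3, Peg10 and Snrpn), where 8.71% of the 13981 genes tested rose, and 1 fell (Impact), where 8.57% fell. From 0 to 24 h the same 4 genes rose, where 13.7% of all genes did, and none fell, where 14.4% did. From 12 to 24 h 1 rose (Mest), where 2.2% did, and none fell, where 2.08% did. The median log2 change of the 9 genes was 0.30 from 0 to 12 h, 0.08 from 0 to 24 h and 0.13 from 12 to 24 h, beside −0.03, −0.04 and −0.01 over all genes. All 9 passed the filter, Plagl1 and Igf2 through 1 WT replicate.

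Of the genotype differences, the libraries did not overlap, with delta lower, for 4 of the 9 genes at 0 h (6.21% of all genes), for 6 at 12 h (15.2%) and for 5 at 24 h (16.4%), where Plagl1 is separated in FPKM and tied in reads. At all 3 times this held for Mest and Igf2 (0.987%), and at 0 h the replicate 2 libraries held 29 Igf2 reads in delta and 28 in WT. Delta was higher without overlap for none at 0 h (6.52%) for Snrpn at 12 h (16.8%) and at 24 h (14.3%), and for none at all 3 times (0.958%). The genes were picked for such differences, so the counts only describe them. Over all genes limma called 2 lower in delta averaged over times (0.0143%), of which Tcf15 is one, and none higher (0%). At an unadjusted p under 0.05 there were 314 higher and 291 lower, and voom on recovered reads also called 2 lower and 0 higher. No call between the genotypes is read for any of the 9 genes.

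The other paternally expressed genes were read as a list of 27, of which 14 passed the filter. From 0 to 12 h 3 rose (Slc38a4 by 0.63 ± 0.19, Zdbf2 by 1.01 ± 0.23 and Gab1 by 0.81 ± 0.16) and 1 fell (Dio3, log2 change −1.36 ± 0.26), where 8.71% of all genes rose and 8.57% fell. From 0 to 24 h 3 rose (Slc38a4, Gab1 by 1.01 ± 0.16 and Snhg14 by 0.82 ± 0.20) and Dio3 fell by 2.04 ± 0.26 (limma adjusted p = 0.00056), where 13.7% of all genes rose and 14.4% fell. None was called between the genotypes, with 0 at an unadjusted p under 0.05, and their median difference was 0.01, as over all genes; voom on recovered reads also called 0 of them. From 12 to 24 h none was called by limma or by voom (1 at an unadjusted p under 0.05 with each). Slc38a4 lost each of its calls in 10 of 12 fits that left out a library, and Zdbf2 and Snhg14 lost theirs in 3.

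The genes that share a cluster with the 9 came to 11 tested of 26. Zfp264, Ndn, Mkrn3, Peg12 and Snhg14 are also in the list of other paternally expressed genes, so the lists are not separate. From 0 to 12 h Casd1 (0.53 ± 0.13), Cep41 (0.67 ± 0.12) and Ppp1r9a (0.82 ± 0.18) rose, and from 0 to 24 h Ube3a (0.56 ± 0.12), Cep41, Ppp1r9a and Snhg14 rose, where 8.71% and 13.7% of all genes rose over these intervals. Ppp1r9a lost its 0 to 24 h call in 9 of 12 fits that left out a library (adjusted p up to 0.135), and Casd1 lost its call in 4. None fell and none was called between the genotypes (1 at an unadjusted p under 0.05, and 0 by voom). H19, the RNA transcribed from the other allele at the Igf2 locus, stayed at 0.260 FPKM or below, and Sgce, Usp29 and Zim1 stayed at 0.253 FPKM or below. Snurf was listed at 0 in all 12 libraries. It shares 216 exon bases with Snrpn on the same strand, and how shared reads were counted is not given. The 0 therefore does not show that Snurf is silent.

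Imprint maintenance and DNA methylation factors were read as a list of 25, of which 24 passed the filter. The list also holds the de novo methyltransferase genes, Dnmt3l and the Tet genes, so its counts are not of imprint maintenance alone. From 0 to 12 h 13 rose, where 8.71% of all genes did, and 1 fell, where 8.57% did. From 0 to 24 h 12 rose, where 13.7% of all genes did, and 1 fell, where 14.4% did. Several of these rises rest on few libraries: among the 12 fits that left out a library, the 0 to 12 h call was lost in 10 for Hells, 9 for Tet1, 7 for Mbd3 and 6 for Ctcf, and the 0 to 24 h call in 10 for Arid4b. The de novo methyltransferase genes and Dnmt3l, their partner, moved most. Dnmt3a changed by 1.95 ± 0.38 from 0 to 12 h and by 4.03 ± 0.38 from 0 to 24 h. Over the same intervals Dnmt3b changed by 1.83 ± 0.16 and 3.12 ± 0.16, and Dnmt3l by 3.31 ± 0.26 and 3.54 ± 0.26. Zfp57, the reader of methylated TGCCGC, rose by 1.10 ± 0.24 at 12 h (limma adjusted p = 0.014) and stood at 0.36 ± 0.24 from 0 to 24 h (adjusted p = 0.29). Its corepressor Trim28 rose by 0.69 ± 0.17 and 0.55 ± 0.17 but lost both calls without a filter on level, and in 7 and 10 of 12 fits that left out a library. Dppa3 protects methylation in the early embryo. It fell by 1.68 ± 0.23 from 0 to 12 h and by 2.30 ± 0.23 from 0 to 24 h (limma adjusted p = 0.00013). Dnmt1, the maintenance enzyme, changed by 0.63 ± 0.35 and 0.58 ± 0.35 (adjusted p = 0.23 and 0.25). None of the 24 was called between the genotypes, with 1 at an unadjusted p under 0.05, 0 by voom and a median difference of −0.06.

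**Figure D5:**
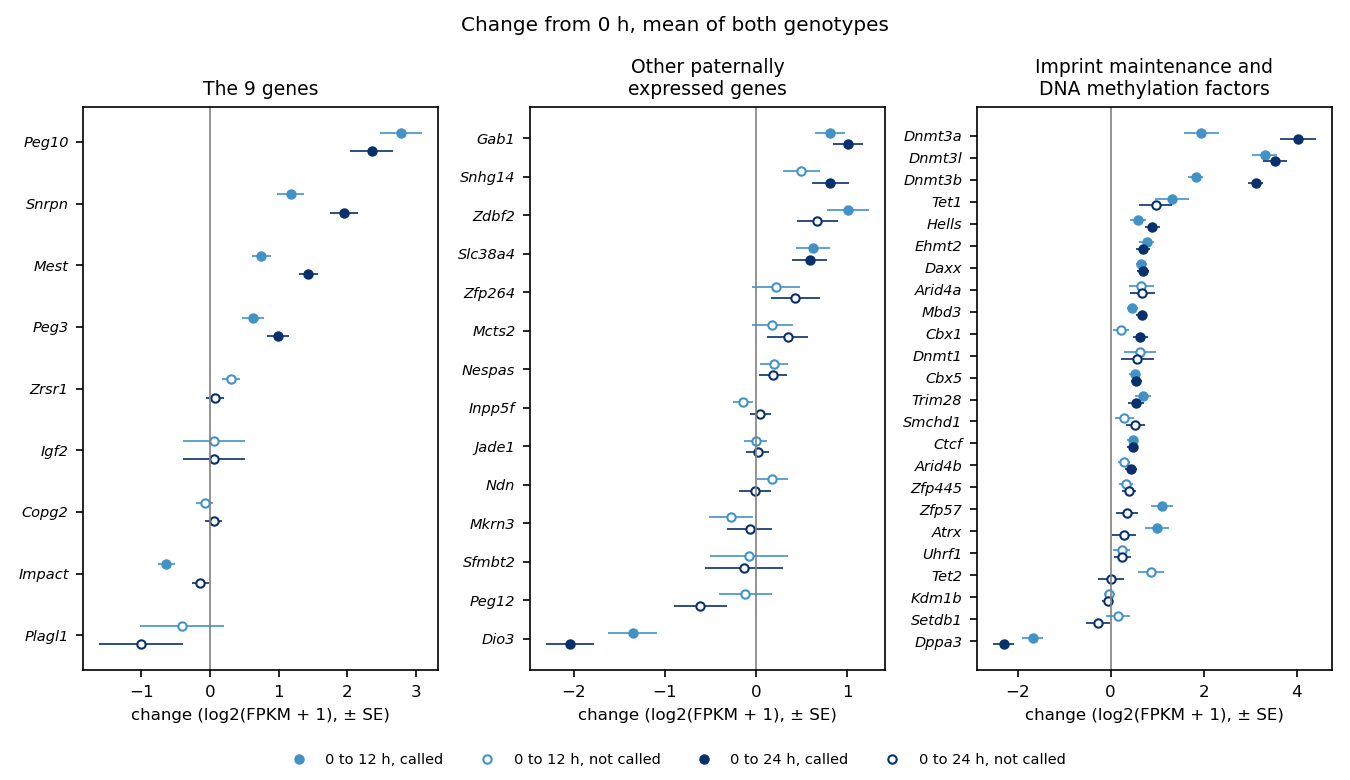
Change in log2(FPKM + 1) from 0 to 12 h (light) and 0 to 24 h (dark), averaged over both genotypes with bars of 1 SE, for the 9 genes, 14 other paternally expressed genes and 24 imprint maintenance and methylation factors, where filled points passed the limma test. Peg10, Snrpn, Mest and Peg3 rose at both times, Dnmt3a reached 4.03, and Dio3 and Dppa3 fell.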

How the data were processed

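The deposited values are FPKM per gene, already normalised by the authors; the submitters' processing notes list cutadapt, STAR 2.5.2b, featureCounts 1.5.1, edgeR 3.16.5 and build mm10, with no role or order. Per the labels' protocols, mRNA was taken with oligo dT beads and libraries made with the NEBNext UltraII kit. Members and gene lists were chosen with earlier results of these data known.

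The 13981 genes at 1 FPKM or more in 2 or more libraries entered 1 limma 3.58.1 model in R 4.3.3 on log2(FPKM + 1), fitting 6 group means, a mean-variance trend and Benjamini-Hochberg adjustment over all genes (2-sided, threshold 0.05). Time changes were averaged over genotypes. Whole reads, recovered from the FPKM steps with GENCODE M21 exon lengths for 100% of 28657 genes within a tolerance of 0.01 (80.1% at the annotated length), gave depth and a voom alternative. The genes named are all 9 members, Tcf15 and the list genes set by rule. Deviations of same-numbered delta and WT libraries correlated at 0.70, 0.28 and 0.37 at 0, 12 and 24 h, but no label states a pairing. The main fit therefore has no replicate block. The alternatives were a replicate block, another pseudocount (0.1), no filter, a median shift, voom and leaving out each library. The script was tested on simulated data. Python 3.11.15 (numpy 2.4.6, pandas 2.3.3, matplotlib 3.10.9) made the tables and figures.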

Additional observations from a re-analysis of the deposited data

Results flagged for a closer look

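Copg2 was flagged because its changes had opposite signs in the genotypes. The flag uses signs only, between libraries of the same replicate number, a pairing that no label states. The fitted change from 0 to 24 h was −0.27 ± 0.17 in delta and 0.37 ± 0.17 in WT (log2, SE). From 0 to 24 h both delta replicates changed by −0.07 and −0.46 and both WT replicates by 0.23 and 0.50 on the log2(FPKM + 1) scale, a difference of −0.634. From 12 to 24 h the changes were −0.10 and −0.02 in delta against 0.32 and 0.32 in WT, a difference of −0.378. The difference was not tested, and both changes use the same 24 h libraries. The groups hold 2 libraries, too few for a check of single libraries that stand apart.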

How the results depend on the processing

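With the replicate block the count of changed genes was 3778 from 0 to 12 h, against 2416, and 948 from 12 to 24 h, against 598; the number of the 9 genes called from 12 to 24 h was 3 (Impact, Mest, Snrpn), against 1. Apart from these, the block changed no call of the 9 genes. With no filter on level the delta minus WT count was 9, against 2, and 2 of the 9 were called from 12 to 24 h. Chosen after seeing the data, a fit without WT 0 h replicate 1 and delta 0 h replicate 1 gave 2065 genes from 12 to 24 h, 5 between the genotypes and 3 of the 9 from 12 to 24 h. Leaving out 1 library in turn gave 1163 to 5934 genes from 0 to 12 h, 2422 to 6496 from 0 to 24 h, 198 to 935 from 12 to 24 h and 2 between the genotypes in every fit, with 4 to 5, 4 to 5 and 0 to 3 of the 9 genes called. Uncalled log2 changes took both signs over these fits and the one added: −0.17 to 0.0143 (0 to 12 h) and −0.0403 to 0.1439 (0 to 24 h) for Copg2, where the added fit gave −0.003; −1.272 to 0.1041 (0 to 12 h) for Plagl1; and −0.4159 to 0.5372, −0.4136 to 0.5395 and −0.334 to 0.3386 (0 to 12, 0 to 24 and 12 to 24 h) for Igf2. The causes were not tested. Limits: 2 libraries a group, unknown strand of counting, 1 clone, and few reads for Plagl1 and Igf2 in delta.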
